A study of Mus musculus with 6 samples.

Results

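Ribosome biogenesis factors are the proteins that transcribe, modify, cut and fold ribosomal RNA and load it with ribosomal proteins in the nucleolus. The 34 genes described here are such factors and Myc, a transcription factor that regulates many of them. They were chosen by name, and every probe set that the platform's probe table assigns to exactly 1 of their symbols was taken. That gave 67 of 45037 probe sets and 33 of the 34 genes. The only probe set of Mrto4 is also assigned to pseudogenes, so Mrto4 is given no value. After a filter on dim signals 63 probe sets remained of 27022, and all 33 genes kept at least 1.

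The cells were 2T3 pre-osteoblasts, a clonal mouse line made with a viral T antigen, so every sample is the same clone. In one group (3 samples) the cells spent 3 days in a rotating wall vessel, a turning fluid-filled culture chamber used on the ground to simulate microgravity. In the other (3 samples) they spent 3 days in static conditions. Total RNA of each sample was read on 1 single-colour Affymetrix array. The titles put the samples into groups, the letter R being read as rotated. For static 2 and static 3 the source field names simulated microgravity against the title, and for all samples nothing says that they came from separate cultures. The tests therefore measure only how far these arrays vary, and that variation may be technical.

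In the nucleolus RNA polymerase I makes a long precursor of ribosomal RNA. Small nucleolar ribonucleoprotein particles (snoRNPs) guide its chemical modification, those of the box C/D type ribose methylation and those of the box H/ACA type the conversion of uridine to pseudouridine. Further factors cut the precursor and mature the small and the large subunit. MYC drives many of these genes, and osteoblasts, which secrete large amounts of collagen, depend on a high capacity for protein synthesis.

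As measured, 25 of the 33 genes had a positive difference between rotated and static samples, which is 75.8% against 53.2% of all 12554 genes, and their median log2 difference was 0.20 against 0.03 for all genes. The clearest values belonged to the box H/ACA snoRNP proteins Nop10 and Nhp2 and to the large-subunit factor Nop2, each 1.56-fold to 1.70-fold higher in rotated samples. No factor passed limma's test after Benjamini-Hochberg adjustment over all probe sets (0% of 27022 called, smallest adjusted p among the factors 0.592). Single values below are therefore measured differences. In 25 of the 33 genes the samples numbered 2 were the lowest of both groups.

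The promoters of the 4 box H/ACA protein genes and of Nop2 are shown because all 4 particle genes had positive differences and Nop2 had the widest one. Each is the RefSeq window of GRCm38.p6 from 250 bases before to 50 after the annotated start, 5′ to 3′ on the gene's strand. Capitals mark matches on either strand to CACGTG (the E-box bound by MYC with its partner MAX), CCGGAAG (the core of ETS factor sites), GGGCGG (the GC box) or TATAAA (the TATA box).

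Nop10, chr2:112261676-112261975 (+): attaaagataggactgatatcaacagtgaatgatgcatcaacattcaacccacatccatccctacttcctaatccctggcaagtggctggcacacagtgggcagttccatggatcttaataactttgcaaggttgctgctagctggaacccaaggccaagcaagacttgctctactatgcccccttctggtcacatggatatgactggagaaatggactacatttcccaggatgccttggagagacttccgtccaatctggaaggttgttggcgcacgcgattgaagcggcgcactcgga

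Nhp2, chr11:51619523-51619822 (+): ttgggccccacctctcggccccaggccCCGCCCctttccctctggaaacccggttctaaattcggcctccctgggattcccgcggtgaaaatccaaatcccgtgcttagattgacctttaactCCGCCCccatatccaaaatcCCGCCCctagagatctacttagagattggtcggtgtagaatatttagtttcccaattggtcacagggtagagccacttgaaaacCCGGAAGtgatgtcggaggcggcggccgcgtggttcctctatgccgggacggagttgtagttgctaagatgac

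Dkc1, chrX:75095604-75095903 (+): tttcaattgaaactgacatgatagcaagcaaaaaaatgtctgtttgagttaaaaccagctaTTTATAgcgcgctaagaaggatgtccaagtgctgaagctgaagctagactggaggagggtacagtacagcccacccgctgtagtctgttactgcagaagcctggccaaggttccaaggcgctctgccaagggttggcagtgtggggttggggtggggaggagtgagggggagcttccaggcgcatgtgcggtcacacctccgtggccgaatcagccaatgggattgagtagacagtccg

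Gar1, chr3:129831347-129831646 (-): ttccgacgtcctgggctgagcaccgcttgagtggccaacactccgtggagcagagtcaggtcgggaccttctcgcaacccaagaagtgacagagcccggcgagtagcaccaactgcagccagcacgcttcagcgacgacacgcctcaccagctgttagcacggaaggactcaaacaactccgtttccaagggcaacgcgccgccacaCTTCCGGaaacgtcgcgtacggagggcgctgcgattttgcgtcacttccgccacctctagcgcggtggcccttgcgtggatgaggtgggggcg

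Nop2, chr6:125131633-125131932 (+): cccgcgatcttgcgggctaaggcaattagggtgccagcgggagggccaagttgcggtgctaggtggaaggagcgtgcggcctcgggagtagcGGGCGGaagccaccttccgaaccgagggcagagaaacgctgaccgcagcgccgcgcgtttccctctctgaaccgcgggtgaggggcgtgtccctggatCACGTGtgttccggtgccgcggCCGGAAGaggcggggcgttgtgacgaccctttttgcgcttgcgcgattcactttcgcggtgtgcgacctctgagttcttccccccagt

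The Nop10 window holds none of the 4 motifs. Those of Nhp2 and Nop2 hold both a CCGGAAG and at least 1 GGGCGG match, and that of Nop2 holds CACGTG as well. The table held a promoter for 28 of the 34 factors. CACGTG lay in 4 of them (Nop2, Pes1, Tsr1 and Wdr43), 14.3% against 8.09% of the 27025 genes with a promoter. CCGGAAG lay in 8 (28.6% against 9.93%), GGGCGG in 19 (67.9% against 38.2%) and TATAAA in 2 (7.14% against 15.7%). Each motif was searched by itself, and matches of CCGGAAG and GGGCGG on opposite strands can overlap at their ends. A match is a description of the sequence only.

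The signals that follow are log2(intensity + 16.6) after quantile normalization, where 16.6 is the 20th percentile of all intensities. Differences are log2 rotated minus static with limma's moderated standard error (SE), n = 3 per group. A fold on this scale understates the change of dim probe sets. A signal also depends on its probes, so levels are not compared between genes. Where a gene has several probe sets, the one with the highest mean stands for it.

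The box H/ACA particle has 4 core proteins, and all 4 genes had positive differences, where 53.2% of all genes did. The median of the 4 was 0.47. Nop10 encodes its smallest core protein, which binds the pseudouridine synthase directly. Its brighter probe set (1423210_a_at) gave 13.66, 13.25 and 13.19 in rotated 1 to 3, against 13.02, 12.57 and 12.48 in static 1 to 3. Its other probe set (1423211_at) gave 12.42, 12.44 and 12.27 in rotated samples, against 11.74, 11.88 and 11.72 in static samples. On both probe sets every rotated sample lay above every static one. The differences were 0.68 ± 0.20 (1.60-fold, 95% interval 0.22 to 1.14) and 0.60 ± 0.17 (1.51-fold), with an adjusted p of 0.592 for both in limma.

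Nhp2 encodes a core protein that binds the guide RNA of the particle. Its brighter probe set (1416606_s_at) gave 12.59, 11.75 and 12.32 in rotated samples, against 12.03, 11.17 and 11.52 in static samples, a difference of 0.65 ± 0.28 (1.56-fold, limma adjusted p 0.606). The suffix s_at marks probes shared between transcripts, so this signal may not come from Nhp2 alone. The same limit holds for the representative probe sets of Gar1, Nop56, Fbl and Tsr1. It also holds for the second probe sets of Tsr1 and Wdr43 and for one of Dkc1. The other probe set (1416605_at) gave 11.77, 11.08 and 11.41 in rotated samples, against 10.89, 10.36 and 10.76 in static samples. There the groups did not overlap (0.75 ± 0.24, 1.68-fold, 95% interval 0.20 to 1.30), while on the brighter one rotated 2 lay below static 1.

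Dkc1 encodes dyskerin, the pseudouridine synthase itself, which is also part of telomerase. Its representative probe set (1438016_at) gave 12.08, 11.05 and 11.42 in rotated samples, against 11.63, 11.00 and 11.01 in static samples (0.30 ± 0.29), and the groups overlapped. On the other Dkc1 probe sets the groups did not overlap. One (1441788_s_at) gave 11.26, 10.79 and 11.20 in rotated samples, against 10.36, 10.74 and 10.36 in static samples (0.60 ± 0.22). The last (1438015_at) gave 11.33, 10.50 and 10.63 in rotated samples, against 10.37, 10.19 and 10.14 in static samples (0.59 ± 0.26). Gar1 encodes the protein that helps the particle release its substrate. It gave 11.81, 10.93 and 11.49 in rotated samples, against 11.60, 10.85 and 11.17 in static samples. Its difference of 0.20 ± 0.28 (95% interval -0.42 to 0.83) was smaller than its error.

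**Figure D1:**
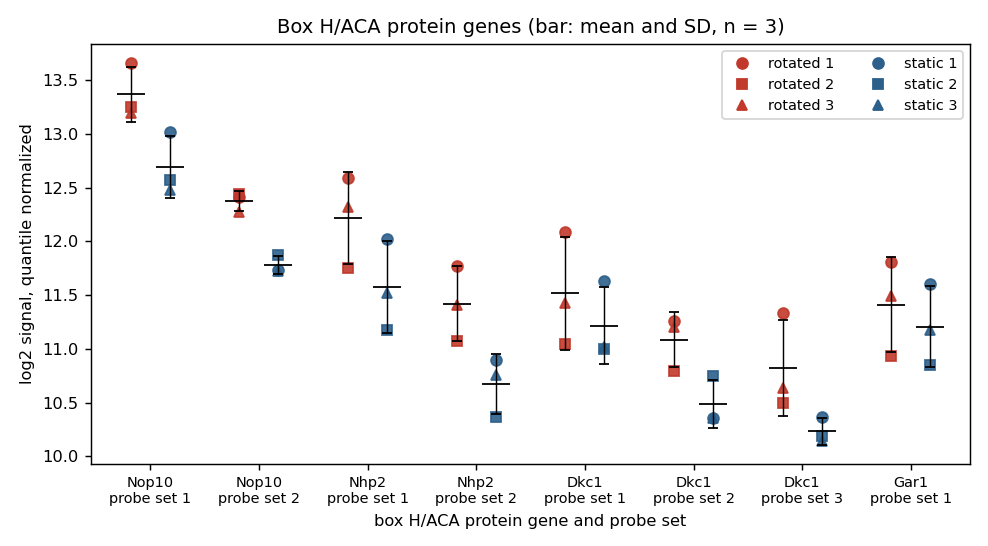
Log2 signal of each tested probe set of Nop10, Nhp2, Dkc1 and Gar1 (vertical axis) in the rotated (red) and static (blue) samples, with group means and SD (n = 3). For both Nop10 probe sets, the dimmer one of Nhp2 and both dimmer ones of Dkc1, all rotated samples lie above all static samples.

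The array of rotated 1 had a 3' over 5' signal ratio of 3.21 on the actin control probe sets, while the ratio was 1.57 in rotated 2, 1.48 in rotated 3 and at most 1.37 in any static sample. On the transferrin receptor controls it was 8.92 in rotated 1 and from 1.62 to 3.71 in the other samples. On the Gapdh controls rotated 1 (0.87) did not stand apart, as static 1 also had 0.87. Rotated 1 had the highest signal of all samples on 7 of the 8 box H/ACA probe sets shown, which belong to only 4 genes. The same count over all probe sets was not made. Among the rotated samples alone, rotated 1 was highest in 39.3% of all genes and in 54.5% of the 33 factors. Leaving out rotated 1 put the median over the 4 genes at 0.24. Fitting the actin ratio as a covariate put it at 0.13, with 2 of 4 genes positive. The actin ratio was higher in every rotated sample than in any static one, so this fit cannot tell it apart from rotation. The part of RNA quality in these differences was not tested further.

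Among the large-subunit factors Nop2, an RNA methyltransferase of the large-subunit RNA, had the widest difference. It gave 10.37, 9.76 and 10.41 in rotated samples, against 9.47, 9.06 and 9.72 in static samples. Every rotated sample lay above every static one, by 0.76 ± 0.27 on average (1.70-fold, 95% interval 0.15 to 1.38, limma adjusted p 0.592). Nip7, a factor of large-subunit RNA processing, gave 11.61, 10.94 and 11.24 in rotated samples, against 11.41, 10.26 and 10.94 in static samples (0.39 ± 0.31). The groups of Nip7 overlapped, and its second probe set stood at 0.36 ± 0.40.

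Pes1, Bop1 and Wdr12 encode the 3 proteins of the PeBoW complex, which is needed for maturation of the large subunit. Pes1 differed by -0.02 ± 0.23 (95% interval -0.54 to 0.50) and Bop1 by 0.09 ± 0.29. Wdr12 stood at 0.35 ± 0.40. The dimmer second probe set of each stood higher, at 0.39 ± 0.33 for Pes1, 0.72 ± 0.43 for Bop1 and 0.90 ± 0.41 for Wdr12, so the size for this complex depends on the probe set. Rrs1, which brings the small RNA of the large subunit into the particle in yeast, stood at -0.02 ± 0.39 on one probe set and 0.40 ± 0.34 on the other. The sign of the representative probe set changed with the scaling for Pes1 and Rrs1. Nop16 differed by -0.13 ± 0.31, and its dimmer probe set stood in the opposite direction at 0.66 ± 0.52. Ebna1bp2, a partner of nucleolar assembly factors, differed by 0.22 ± 0.21. A dim second probe set of Ebna1bp2 stood at -0.84 ± 0.64.

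All 7 small-subunit factors had positive differences, where 53.2% of all genes did. Their median was 0.14. Tsr1, a GTPase-like factor bound to late small-subunit precursors, gave 11.42, 10.15 and 11.01 in rotated samples, against 10.60, 9.53 and 10.30 in static samples. Rotated 2 lay below static 1 and static 3, so the groups overlapped, and the difference was 0.72 ± 0.37. The second Tsr1 probe set stood at 0.58 ± 0.32. Heatr1, which also supports transcription by polymerase I, gave 10.61, 9.65 and 10.47 in rotated samples, against 10.25, 9.22 and 9.79 in static samples (0.49 ± 0.34). Its dimmer probe sets stood at 0.14 ± 0.30 and -0.47 ± 0.71. Rrp12, an export factor, stood at 0.34 ± 0.44. Nop14 (0.14 ± 0.46), the endonuclease gene Nob1 (0.07 ± 0.27), Wdr75 (0.06 ± 0.30) and Wdr43 (0.05 ± 0.39) differed by less than their errors. The second probe sets of Wdr75 and Wdr43 stood at 0.73 ± 0.39 and 0.32 ± 0.39.

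The box C/D particle showed no common direction. Fbl encodes fibrillarin, the methyltransferase of the particle, and stood at 0.25 ± 0.24 and 0.20 ± 0.22 on its probe sets. Nop56 and Nop58 encode the paired scaffold proteins. Nop56 gave 12.20, 11.02 and 11.86 in rotated samples, against 11.88, 10.46 and 11.18 in static samples (0.52 ± 0.39), while its second probe set stood at -0.03 ± 0.33. Nop58 gave 11.07, 9.69 and 10.09 in rotated samples, against 11.66, 9.79 and 10.41 in static samples (-0.34 ± 0.49). Each Nop58 signal was below that of the same-numbered static sample, although the groups overlapped. Rrp9, a box C/D protein specific to the particle that guides early cleavage, gave 7.75, 5.29 and 9.34 in rotated samples, against 7.67, 7.81 and 8.91 in static samples. Its difference of -0.67 ± 0.85 rested on rotated 2, which lay below the filter's threshold of 5.96, and was 0.41 without rotated 2.

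Of the abundant nucleolar proteins, the histone-binding chaperone nucleophosmin (Npm1) gave 14.21, 13.76 and 13.98 in rotated samples, against 13.89, 13.32 and 13.73 in static samples (0.34 ± 0.19). Its second probe set stood at 0.20 ± 0.25. Nucleolin (Ncl), which binds nascent ribosomal RNA, has 5 tested probe sets, which stood at 0.08 ± 0.30, -0.04 ± 0.24, 0.10 ± 0.35, 0.79 ± 0.32 and 0.36 ± 0.45. On the fourth alone the groups did not overlap. The GTPase gene Gnl3 (nucleostemin) stood at 0.24 ± 0.42 and the snoRNP chaperone gene Nolc1 at -0.15 ± 0.34. The other Nolc1 probe sets stood in opposite directions, at 0.34 ± 0.40 and -0.38 ± 0.35. Polr1b and Polr1a encode the large subunits of RNA polymerase I. Polr1b gave 8.53, 8.27 and 9.21 in rotated samples, against 8.02, 8.10 and 8.37 in static samples (0.50 ± 0.30), and Polr1a stood at 0.20 ± 0.30. The dimmer Polr1a probe sets stood at -0.35 ± 0.31 and 0.04 ± 0.44.

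Of the RNA helicases, Ddx21 stood at 0.22 ± 0.34, with its second probe set in the opposite direction at -0.41 ± 0.46. Ddx18 stood at 0.19 ± 0.32 and on its other probe sets at 0.46 ± 0.47 and 0.05 ± 0.34. Ddx56, which acts in large-subunit assembly, was the only factor whose rotated samples all lay below the static ones. It gave 8.44, 7.95 and 8.57 in rotated samples, against 9.23, 8.59 and 8.85 in static samples (-0.57 ± 0.29, 95% interval -1.21 to 0.07). Myc, the transcription factor of the list, gave 10.34, 10.52 and 11.98 in rotated samples, against 12.02, 10.22 and 11.98 in static samples. Both samples numbered 3 were alike in Myc, both numbered 2 were low, and rotated 1 was low where static 1 was high. The difference was -0.46 ± 0.54 (95% interval -1.68 to 0.76). Within numbers 1 to 3 it was -1.69, 0.30 and 0.01, and with both samples numbered 1 left out it was 0.15. The sign for Myc thus rested on the samples numbered 1.

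**Figure D2:**
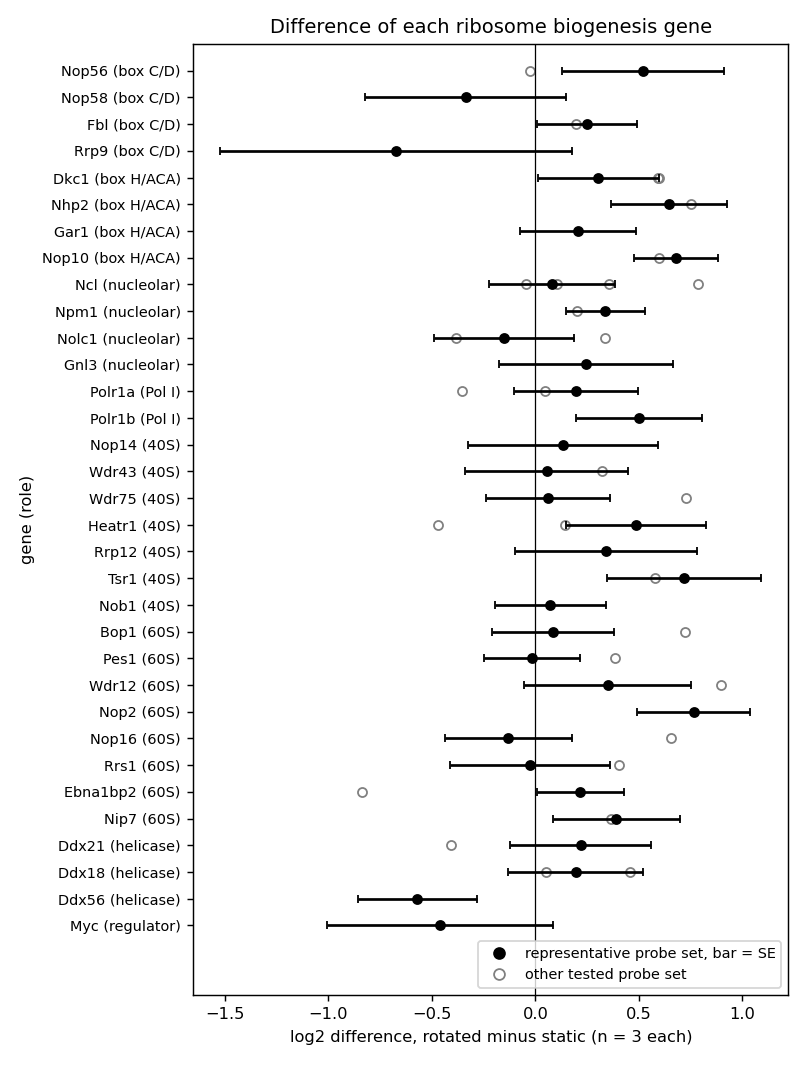
Log2 difference of rotated minus static (horizontal axis) for each of the 33 genes, grouped by role. Filled points with SE bars are the representative probe sets and open points the other tested ones. Among the filled points Nop2, Tsr1, Nop10 and Nhp2 lie farthest to the right, and Rrp9, Ddx56, Myc and Nop58 farthest to the left.

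Of 22 genes with more than 1 tested probe set, 10 had probe sets of opposite sign. At an unadjusted p under 0.05 limma counted 3 of 33 genes as higher in rotated samples (Nop10, Nhp2 and Nop2), which is 9.09% against 4.49% of all genes, and none as lower, against 3.74%. By probe set the higher count was 8 of 63, or 12.7% against 4.34% of all probe sets. The rotated signals lay wholly above the static ones in 2 of 33 genes (6.06% against 8.29% of all genes) and wholly below in 1 (3.03% against 7.11%). By probe set, 7 of 63 lay wholly above (11.1% against 7.82% of all probe sets) and 1 wholly below (1.59% against 7.29%). The higher probe sets on either count belonged to Nop10, Nhp2, Dkc1, Ncl and Nop2 alone. Some of these genes entered by several probe sets, so the counts by probe set are not counts of separate genes.

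The samples numbered 2 stood apart in both groups. Relative to the static mean, the 33 genes had a median of 0.45 in rotated 1, -0.28 in rotated 2 and 0.44 in rotated 3, against 0.39 in static 1, -0.43 in static 2 and 0.06 in static 3. Rotated 2 was the lowest rotated sample in 28 of 33 genes and static 2 the lowest static sample in 28. Both held for 25 genes, which is 75.8% against 15.7% of all genes. Neither sample was the highest of its group for any of the 33. The range of these medians within each group was wider than the median difference of 0.20 between the groups.

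**Figure D3:**
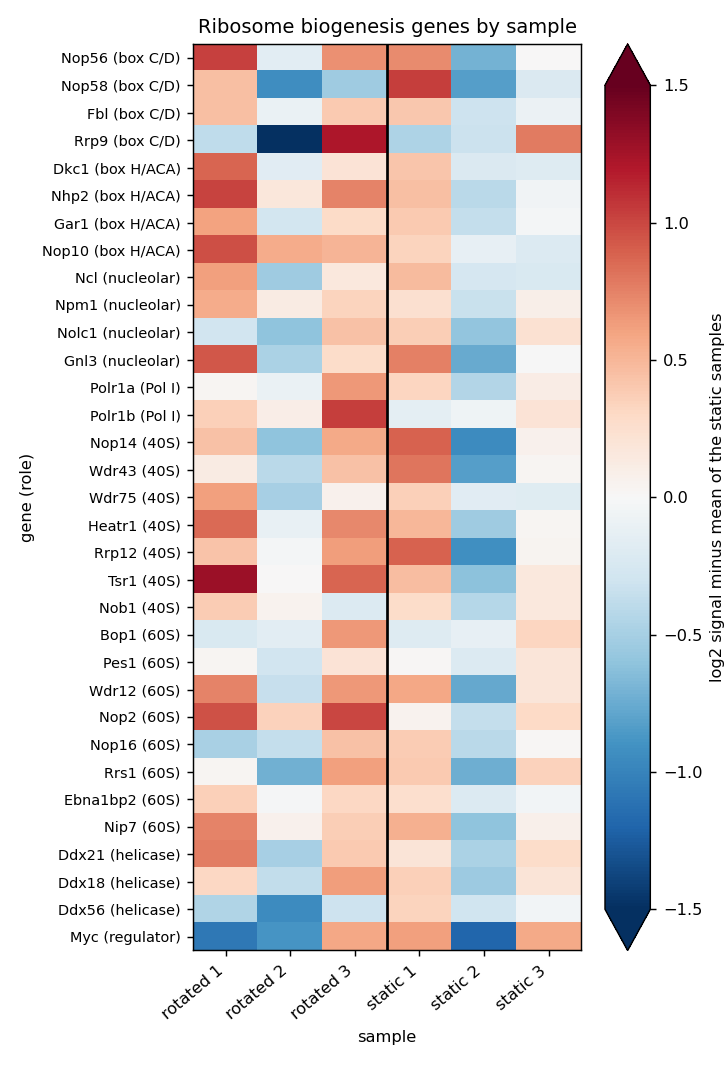
Log2 signal minus the mean of the static samples for each of the 33 genes (rows, by role) in the rotated samples (left of the line) and static samples (right of it). Red is above and blue below the static mean. The columns of rotated 2 and static 2 are mostly pale or blue, and those of rotated 1, rotated 3 and static 1 mostly red.

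Same-numbered samples also deviated together over all probe sets. Within numbers, the median difference of the factors was 0.11 for number 1, 0.22 for number 2 and 0.41 for number 3, against 0.03, 0.03 and 0.02 for all genes. The rotated sample was above its same-numbered static sample in all 3 pairs for 15 of 33 genes (45.5% against 23.8% of all genes) and below it in all 3 for 2, Nop58 and Ddx56 (6.06% against 19.4%). With the replicate number as a block, the count at an unadjusted p under 0.05 was 8 higher and 1 lower, against 3 and 0 without it. That is 24.2% against 8.23% of all genes for higher and 3.03% against 6.75% for lower. The 8 were Nop10, Nhp2, Tsr1, Nop2, Nop56, Npm1, Heatr1 and Nip7, and the 1 was Ddx56. No factor passed the adjusted threshold with the block either, the smallest adjusted p being 0.169 for Nop10.

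The median of the 33 genes leaned on single samples. It was 0.04 without rotated 1, 0.45 without rotated 2, 0.40 without static 1 and -0.02 without static 2, where 14 of 33 genes were positive. Array weights, which gave static 3 and rotated 2 the most weight, also put it at -0.02, and the actin covariate put it at 0.04.

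**Figure D4:**
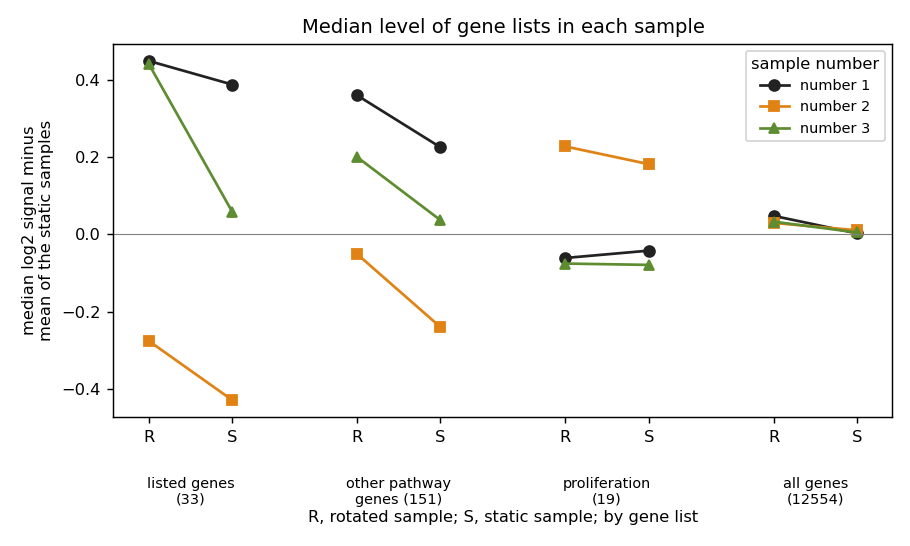
Median log2 signal relative to the static mean (vertical axis) for the factors, other genes of the pathway, proliferation genes and all genes, in the rotated (R) and static (S) samples. Lines join samples of the same number. For the factors both samples numbered 2 lie lowest, at -0.28 and -0.43, while for proliferation genes they lie highest.

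A wider list of the pathway, 162 further genes of which 151 were tested, had a like median of 0.20, with 111 positive (73.5% against 53.2% of all genes). That median was 0.10 without rotated 1, 0.33 without rotated 2 and 0.08 without static 2. Array weights put it at 0.10 and the actin covariate at 0.03, with 87 positive. At an unadjusted p under 0.05 limma counted 8 as higher (5.30% against 4.49% of all genes) and 3 as lower (1.99% against 3.74%), and 0 passed after adjustment. In 69 (45.7% against 23.8%) the rotated sample was above its same-numbered partner in all 3 pairs. Both samples numbered 2 were lowest in 76 (50.3% against 15.7%). The lists were chosen with earlier results of these data known, so the likeness to the 33 factors is a description.

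For the positive counts of the single lists, the share over all genes was 53.2%. Small-subunit processing genes beyond the 7 were positive in 44 of 57, with a median of 0.20, and 5 counted as higher at the unadjusted threshold, which 4.49% of all genes did. Noc4l, a small-subunit assembly factor, stood at 0.83 ± 0.34, with its 3 other probe sets in the same direction. Kri1 stood at 0.71 ± 0.26, Fcf1 at 0.53 ± 0.21 and Utp3 at 0.54 ± 0.23. In the opposite direction Utp6 stood at -0.55 ± 0.25, though only 1 of its 2 other probe sets had the same sign. Large-subunit genes were positive in 44 of 53, with a median of 0.26, and 3 counted as higher and 1 as lower, against 4.49% and 3.74% of all genes. The helicase gene Ddx54 gave 11.87, 11.17 and 11.23 in rotated samples, against 10.93, 10.50 and 10.49 in static samples (0.78 ± 0.25), and the groups did not overlap. Pelp1 (0.69 ± 0.23) and Tex10 (0.49 ± 0.21), which belong to one complex of late large-subunit maturation, stood in the same direction. Both were read by s_at probe sets, whose signal may not come from these genes alone. Nsa2 stood at -0.43 ± 0.17, with its other probe set in the opposite direction.

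For polymerase I, 11 of 17 further genes were positive (median 0.26), where 53.2% of all genes were. The only gene of this list to count at the unadjusted threshold was Ubtf, the architectural factor of ribosomal gene promoters, at -0.66 ± 0.28. It gave 9.51, 9.70 and 10.44 in rotated samples, against 10.75, 10.26 and 10.61 in static samples, so rotated 3 lay within the static range. Rrn3, the initiation factor of polymerase I, stood at 0.32 ± 0.21. Among 10 snoRNP assembly genes the median was 0.23. Naf1, which assembles box H/ACA particles, stood at 0.66 ± 0.37, while Znhit6, which acts in box C/D assembly, gave 11.27, 10.03 and 10.46 in rotated samples, against 11.59, 11.20 and 11.12 in static samples (-0.72 ± 0.31). The RNA exosome list, which trims precursor RNA, had 5 of 14 genes positive and a median of -0.16, with C1d at -0.50 ± 0.23 and Exosc4 at -0.94 ± 0.51. No gene of it counted at the unadjusted threshold in either direction. The list's median was -0.51 within number 1, 0.05 within number 2 and 0.06 within number 3, and Exosc4 differed by -2.36, -0.41 and -0.04 within those numbers. Rotated 1 had the highest actin ratio, 3.21, whose part in these values was not tested.

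**Figure D5:**
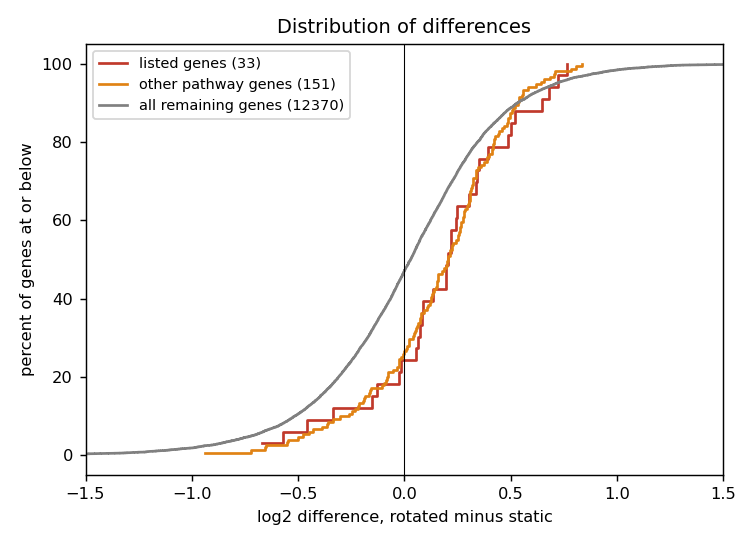
Percent of genes at or below each log2 difference of rotated minus static (horizontal axis) for the 33 factors, 151 other pathway genes and all remaining genes. The curves of both pathway lists lie to the right of the curve of all remaining genes over most of the range, with medians of 0.20 for both. They hold far fewer genes, so their shorter reach at either end cannot be read as a trait of the lists.

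Genes of the MYC network, 10 tested, had a median of 0.03. Mga, a repressor that competes for MAX, stood at 0.73 ± 0.26 and was the only one to count at the unadjusted threshold. Only 1 of the 2 other Mga probe sets had the same sign. Host genes of small nucleolar RNAs, 7 tested, had a median of 0.25. In Gas5, one of them, the samples numbered 2 were again lowest: 13.99, 12.81 and 13.52 in rotated samples, against 13.98, 12.47 and 13.14 in static samples. That did not hold for the whole list. In Snhg3 they were the highest: 9.33, 9.45 and 8.76 in rotated samples, against 8.85, 9.07 and 8.77 in static samples. Proliferation genes, 19 tested, had a median of -0.01. In them the samples numbered 2 were the highest by the list median, 0.23 in rotated 2 and 0.18 in static 2.

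As a check on the cell type, 9 of 12 listed markers of the osteoblast lineage were analysed, and all of them passed the filter. All 9 had negative differences (median -0.51), and 5 counted as lower at an unadjusted p under 0.05, against 3.74% of all genes, among them Dlx5 at -1.08 ± 0.32. Ibsp (-0.55 ± 0.47), Alpl (-0.28 ± 0.47) and Pth1r (-0.35 ± 0.94) had samples below the filter's threshold and errors near or above their differences. The other markers of that list, Bglap, Runx2 and Spp1, were not analysed here. Of 32 listed markers of other cell types 30 had a probe set analysed here, and 14 passed the filter. Those that passed were 2 of 5 for adipocytes (4 analysed), 4 of 5 for cartilage and 3 of 7 for haematopoietic cells (6 analysed). For endothelium 1 of 5 passed, for epithelium 3 of 6 and for muscle 1 of 4. Signals of a list were summed on the linear scale, so its brightest gene leads the sum and the sum need not describe the other markers. That gene was Fabp4 for adipocytes, Col2a1 for cartilage and Col1a2 for the osteoblast lineage. The summed signals of the adipocyte list ran from 11.3 to 11.6 in rotated samples and from 11.6 to 12.3 in static samples. Those of the cartilage list ran from 10.0 to 11.5 in rotated samples and from 9.86 to 10.9 in static samples. The haematopoietic list ran from 8.91 to 9.49 in rotated samples and from 8.97 to 9.32 in static samples, and the endothelial list from 7.46 to 8.07 in rotated samples and from 7.86 to 8.21 in static samples. The epithelial list ran from 8.70 to 8.97 in rotated samples and from 8.89 to 9.61 in static samples, and the muscle list from 7.36 to 7.90 in rotated samples and from 6.85 to 7.75 in static samples. The ranges of both groups overlapped in each of these 6 lists. For adipocytes they barely did, reaching 11.6325 in rotated samples and starting at 11.631 in static samples. Sums of the osteoblast list did not overlap, at 14.9 to 15.5 in rotated samples against 15.7 to 15.8 in static samples. Single markers were apart too, of which Fabp4 already leads the adipocyte sum. Fabp4 (-0.59 ± 0.23) and Epcam (-0.96 ± 0.40) were lower in all rotated samples than in any static one, and Csf1r (0.36 ± 0.27) was higher. Only 1 of the 2 other Csf1r probe sets had the same sign. The part of these lists in the differences of the factors was not tested. Fewer cells of a kind and less RNA per cell cannot be told apart in these samples.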

How the data were processed

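The authors deposited intensity values on a linear scale, 1 for each probe set of each array, from 1-colour Affymetrix arrays run at a core facility, per the series' design text. Every array had the same trimmed mean of 500.0 (2% off either end). For software, summary method and genome build, the sources used here give nothing. Array medians ran from 70.0 to 130.1. Intensities were taken as log2(intensity + 16.6), quantile normalized, and 64 control probe sets and those with a mean below the 40th percentile were left out. Symbols came from the platform's probe table, updated by gene identifier through RefSeq of GRCm38.p6: 34945 probe sets had 1 symbol, 932 several and 9160 none. The test was limma's (version 3.58.1, R version 4.3.3: lmFit, then eBayes with intensity trend, two-sided, Benjamini-Hochberg at 0.05 over 27022 probe sets). The number of arrays limits the precision.

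The genes, lists, tests and alternatives were chosen with earlier results of these data known. All 33 genes are named, and of other lists up to 4 with the smallest p in each direction. Whether numbers pair the samples was checked on deviations from group means. The correlations were 0.20, 0.31 and 0.33 for same-numbered samples and -0.19 to -0.09 for others. Such deviations cancel within a group, so positive values for same-numbered samples go with negative ones for others, which are no separate evidence. The numbers were taken as pairs in the blocked fit, a choice that rests on these same data. What a number stands for is not stated in the labels. Alternatives were other scalings, offsets and filters, no trend, the replicate block, array weights, robust eBayes, the actin ratio as covariate, the mean over probe sets, and samples left out.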

Additional observations from a re-analysis of the deposited data

How the results depend on the processing

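No probe set passed the adjusted threshold in limma except with array weights (22, of which 16 lower) and with the replicate block (2, both lower). With the block, none of these was a probe set of a ribosome biogenesis factor. For array weights only the representative probe sets of the factors were counted, and none of them passed. Over all probe sets, 2228 had an unadjusted p under 0.05. The count of factors at that threshold, 3 as reported, was 9 with the replicate block, 0 with the actin ratio as covariate and between 1 (without rotated replicate 1) and 5 (without rotated replicate 2) when 1 sample was left out. It lay between 2 and 4 under the remaining alternatives. The cause of these shifts was not tested. The median difference ran from -0.02 to 0.45 over all alternatives and was 0.39 with median centring, which put the median of all genes at 0.13, and 0.25 with the values as deposited. Nop10 had an unadjusted p under 0.05 in 17 of 18 alternatives, Nop2 in 12 and Nhp2 in 11, and none of these 3 changed sign. The exception for Nop10 was the actin ratio as covariate. These 3 genes were picked by the same threshold on the same arrays, so the counts are no separate evidence. Of 594 values of single genes under an alternative, 31 moved by more than their SE. With 3 arrays a group, values near the dim filter, such as those of Rrp9, are the least certain.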
